A study of Mus musculus with 12 samples.

Results

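Aminoacyl-tRNA synthetases join each amino acid to its tRNA, the step that supplies the ribosome with charged tRNA. Mammalian cells carry a set for the cytosol and, for most amino acids, a separate nuclear-encoded set for mitochondria, whose gene symbols end in 2. Several cytosolic enzymes sit together in the multi-synthetase complex, held by scaffold proteins, and the others work free in the cytosol. MYC is a transcription factor that drives ribosome production and protein synthesis in growing B cells, and synthetase genes are also known targets of ATF4, the transcription factor of the amino acid response.

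The genes were taken as a fixed list of 36 synthetases, 20 cytosolic and 16 mitochondrial, by name and function and not by a threshold on their values. The array annotation gave 35 of them a probe set, 72 probe sets in all. Aspartyl-tRNA synthetase of the cytosol, Dars, had no probe set under its name and was not analysed here. Where a gene had several probe sets, the brightest on average was used. All 35 passed the filter on low values, so the counts below cover 35 of the 10287 genes tested among 18194 genes. Of the 35, 19 are cytosolic and 16 mitochondrial. The cytosolic enzymes divide into 7 of the multi-synthetase complex (Eprs, Iars, Kars, Lars, Mars, Qars and Rars) and 12 outside it. Kars and Gars, which encode both a cytosolic and a mitochondrial enzyme, were counted as cytosolic.

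The study measured total RNA of bone marrow cells selected with magnetic beads for the B-lineage surface protein B220 (CD45R), on 12 Affymetrix MOE430 2.0 arrays. The mice were littermates of 4 to 6 weeks of age on a background that is 94% C57BL/6. There were 4 groups of 3 arrays: mice with both the Eµ-Myc and the Eµ-TTP-1 transgene (Myc TTP, precancerous), mice with Eµ-Myc alone (Myc, precancerous), mice with Eµ-TTP-1 alone (TTP), and wild-type littermates. Eµ is the immunoglobulin heavy-chain enhancer, which drives a transgene in the B lineage, and TTP is tristetraprolin, an RNA-binding protein encoded by Zfp36 that promotes mRNA decay. All values are log2 of the deposited intensity, and differences are log2 differences. Samples within a group are biological replicates per the labels, and the p-values measure the spread between these samples.

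The Myc probe set read 11.82, 12.73 and 13.37 in Myc TTP cells and 13.71, 13.92 and 12.99 in Myc cells, against 10.05, 10.39 and 13.47 in TTP cells and 9.65, 9.68 and 12.65 in wild-type cells. The arrays labelled TTP 3 and wild type 3 thus carried Myc signal in the range of the transgenic arrays and went against their labels, so results that rest on them are given with all 12 arrays and also without these 2. They were picked after their values were seen, and both lie on the side without the Myc transgene, while Myc 3 is kept. The differences and p-values without these 2 are therefore not separate support for those with all 12 arrays. Zfp36 read 7.47, 8.62 and 9.18 in Myc TTP cells and 9.28, 9.34 and 10.00 in Myc cells, against 9.88, 9.89 and 9.78 in TTP cells and 10.70, 9.80 and 9.84 in wild-type cells. It was not higher on the arrays labelled with the TTP transgene than on those without it. The 9 measured B-lineage markers averaged 11.97 to 13.61 on the arrays, and the RNA also held transcripts of other cells. The 12 granulocyte markers summed to an intensity of 106389 to 160654 in Myc TTP cells and 9292 to 214044 in Myc cells, against 179928 to 360999 in TTP cells and 227978 to 318382 in wild-type cells. The 6 measured erythroid markers summed to 342 to 2083 in Myc TTP cells and 131 to 2410 in Myc cells, against 1678 to 10562 in TTP cells and 2514 to 5394 in wild-type cells, with Hba-a1 under the floor of the filter on every array. The summed B-lineage markers were 79066 to 88586 in Myc TTP cells and 70307 to 102848 in Myc cells, against 89351 to 145372 in TTP cells and 113478 to 161243 in wild-type cells.

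The promoters of 4 members are printed because they hold the most copies of the motifs searched, or belong to the member with the largest rise. The motifs were the E-box CACGTG, a site for MYC and related factors, and TGATGNAA, a form of the element bound by C/EBP and ATF proteins such as ATF4. Each window runs from 250 bases before to 50 bases after the annotated start, 5′ to 3′ along the gene, from RefSeq in build GRCm38.p6, with the motifs in capitals on whichever strand they lie. No copies of the motifs overlapped in them.
Aars, chr8:111033592-111033891 (+ strand): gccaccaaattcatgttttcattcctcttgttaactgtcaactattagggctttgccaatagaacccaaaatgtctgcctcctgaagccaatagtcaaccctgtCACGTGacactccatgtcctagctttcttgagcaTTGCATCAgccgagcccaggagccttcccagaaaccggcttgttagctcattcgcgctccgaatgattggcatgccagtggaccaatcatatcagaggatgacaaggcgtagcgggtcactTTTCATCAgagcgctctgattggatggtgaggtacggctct
Iars, chr13:49681880-49682179 (+ strand): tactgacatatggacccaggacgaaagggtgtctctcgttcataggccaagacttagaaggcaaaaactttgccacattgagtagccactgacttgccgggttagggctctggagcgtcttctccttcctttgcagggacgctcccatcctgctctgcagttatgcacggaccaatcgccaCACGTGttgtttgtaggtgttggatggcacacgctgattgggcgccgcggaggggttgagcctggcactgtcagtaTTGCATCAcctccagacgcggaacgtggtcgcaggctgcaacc
Tars, chr15:11399609-11399908 (− strand): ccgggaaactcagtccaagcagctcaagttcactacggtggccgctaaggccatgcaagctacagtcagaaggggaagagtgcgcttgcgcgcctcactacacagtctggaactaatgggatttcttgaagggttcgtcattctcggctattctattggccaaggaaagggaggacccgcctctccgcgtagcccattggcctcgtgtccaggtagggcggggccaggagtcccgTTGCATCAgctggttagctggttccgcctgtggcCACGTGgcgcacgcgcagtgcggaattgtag
Ears2, chr7:122067037-122067336 (− strand): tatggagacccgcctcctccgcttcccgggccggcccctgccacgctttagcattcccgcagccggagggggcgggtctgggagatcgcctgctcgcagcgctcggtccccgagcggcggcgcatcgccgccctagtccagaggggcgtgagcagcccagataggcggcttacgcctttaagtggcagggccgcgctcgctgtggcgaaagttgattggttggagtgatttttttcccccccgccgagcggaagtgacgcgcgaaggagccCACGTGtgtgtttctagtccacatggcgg
Of the 35 members, 26 had a promoter in this table. The E-box was found in 5 of the 26 (19.2%: Aars, Ears2, Farsb, Iars and Tars), against 2346 of all 32817 promoters of the table (7.15%). The C/EBP-ATF element was found in 5 of the 26 (19.2%: Aars, Gars, Iars, Tars and Yars), against 1303 of all 32817 (3.97%). Aars, Iars and Tars held both, and they are described with their expression below. A match describes the letters of this window and does not show that a factor binds there.

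The main question put to these genes was how they differ between cells with and without the Myc transgene. The Myc effect is the mean of 2 differences, Myc TTP over TTP and Myc over wild type, and so sets 6 arrays against 6. Of the 35 synthetases, 25 rose with Myc at an adjusted p under 0.05 and none fell, while 18.7% of all genes tested were called higher and 24.6% lower. All 35 differences were above 0, from 0.07 in Hars to 1.33 in Ears2, with a median of 0.48 against −0.06 for all genes. With the arrays labelled wild type 3 and TTP 3 left out, 30 of 35 rose, with a median of 0.60, and 24.1% of all genes tested were called higher. Without all 4 arrays numbered 3, 31 of 35 rose, with a median of 0.69, and the share of all genes called higher was 26.8%. Leaving out 1 array at a time, the count ran from 13 to 29, with 13 when TTP 1 or wild type 2 was left out, 14 for Myc 1, Myc 2, TTP 2 or wild type 1, and 16 for Myc TTP 3, while 9.34% to 22.9% of all genes were called higher in the 12 settings. Of the 25 members, 13 were called in each of these 12 settings, and the other 12 lost their call in at least 1. In RNA of whole samples, a change in the mix of cells and a change of RNA per cell cannot be told apart. The granulocyte markers (12 of 12 fell, median −3.18) and the B-lineage markers (9 of 9 fell, median −0.71) moved with the same contrast, as did markers of erythroid cells (5 of 5), monocytes and macrophages (7 of 7), T cells (2 of 2, with Cd3e and Cd3g under the floor throughout), NK cells (5 of 6), plasmacytoid dendritic cells (5 of 5) and plasma cells (4 of 5). With wild type 3 and TTP 3 left out, the medians were −3.70 for the granulocyte and −0.93 for the B-lineage markers, and all tested markers of the 8 lists fell. Their part in the synthetase result was not tested.

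**Figure D1:**
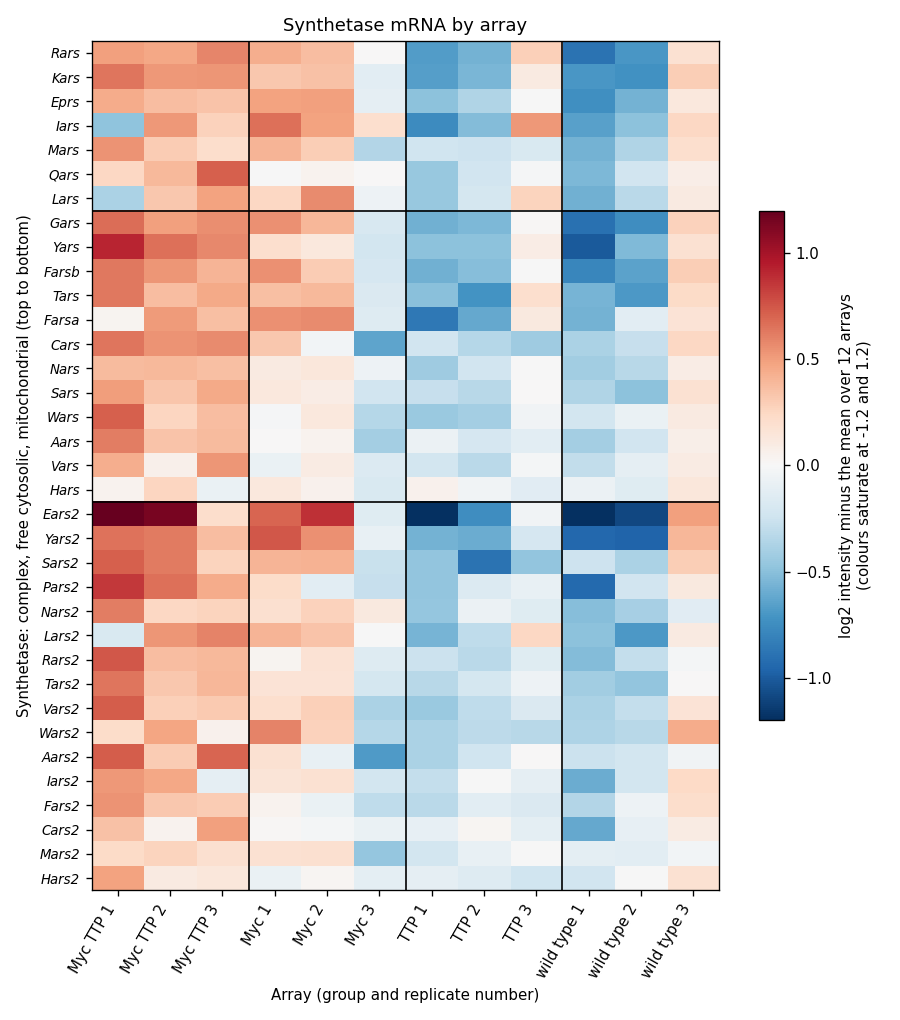
Heat map of the 35 synthetases (rows, in 3 classes) over the 12 arrays (columns, with Myc TTP and Myc at the left and TTP and wild type at the right), coloured by each gene's log2 intensity minus its own mean over the arrays. Most rows are high on the Myc TTP arrays and on Myc 1 and 2, and low on TTP 1 and 2 and wild type 1 and 2, while Myc 3 is low and the array labelled wild type 3 is high.

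Most members stood high or low on the same arrays. A member's deviation is its log2 intensity minus its own mean over the 12 arrays. The median deviation over the 35 members was 0.54, 0.37 and 0.38 on the Myc TTP arrays and 0.20, 0.19 and −0.18 on the Myc arrays, against −0.45, −0.32 and −0.04 on the TTP arrays and −0.52, −0.33 and 0.17 on the wild-type arrays. On Myc TTP 2 all 35 members stood above their own mean, and on wild type 1 and 2 none did. The array labelled Myc 3 had only 4 members above their mean, and the array labelled wild type 3 had 31. Myc 3 was the lowest of the 6 Myc-carrying arrays for 31 of 35 members, and the array labelled wild type 3 was the highest of the 6 others for 28 of 35. Set against each other, Myc 3 was lower than wild type 3 in 34 of 35 members (median −0.40), whereas the mean of Myc 1 and 2 was lower than the mean of wild type 1 and 2 in none (median 0.63). No share of all genes is given for these counts, so they are not read as particular to the synthetases. Over all genes tested, the deviations from the group mean on Myc 3 and wild type 3 correlated at −0.63. The median deviation of all genes tested was −0.15 on Myc 3 and 0.09 on wild type 3, so it differed in the same direction there. It was −0.13 on Myc 1 and on Myc 2, against 0.0036 and 0.11 on wild type 1 and 2. The mean granulocyte marker level was 6.66, 8.20 and 12.39 on the Myc arrays, against 13.20, 13.53 and 12.61 on the wild-type arrays, so Myc 3 stood apart from Myc 1 and 2 in these markers too.

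With all arrays, only Nars2 had its 6 Myc-carrying arrays all above the 6 others, and 0.758% of all genes tested showed this. Once the arrays labelled wild type 3 and TTP 3 were left out, this held for 17 of 35 members, against 15.1% of all genes. They were Eprs, Farsb, Gars, Iars, Kars, Nars, Qars, Rars, Sars, Tars, Yars, Ears2, Lars2, Nars2, Rars2, Tars2 and Yars2.

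Of the 7 enzymes of the multi-synthetase complex, 5 rose with Myc (median 0.55), and all 7 rose without the 2 arrays that went against their labels (median 0.87). Rars, the arginine enzyme, read 12.20, 12.18 and 12.29 in Myc TTP cells and 12.14, 12.08 and 11.71 in Myc cells, against 11.04, 11.14 and 12 in TTP cells and 10.83, 11.02 and 11.90 in wild-type cells. The wild type 3 and TTP 3 arrays lay above Myc 3 and below the other 5 Myc-carrying arrays. Its difference was 0.78 ± 0.21 (SE, adjusted p = 0.0178), and 1.10 (adjusted p = 7.40e-05) without those 2 arrays. Kars, the lysine enzyme, read 12.54, 12.41 and 12.42 in Myc TTP cells and 12.21, 12.24 and 11.77 in Myc cells, against 11.23, 11.34 and 12 in TTP cells and 11.19, 11.17 and 12.19 in wild-type cells. It showed the same arrangement of arrays, with a difference of 0.75 ± 0.20 (SE, adjusted p = 0.0175) that was 1.03 (adjusted p = 9.71e-05) without wild type 3 and TTP 3. Eprs, which carries the glutamate and the proline enzyme in a single chain, read 12.21, 12.14 and 12.10 in Myc TTP cells and 12.24, 12.26 and 11.65 in Myc cells, against 11.27, 11.41 and 11.76 in TTP cells and 11.03, 11.20 and 11.89 in wild-type cells. Again only wild type 3 and TTP 3 reached the level of Myc 3. The difference of Eprs was 0.67 ± 0.16 (SE, adjusted p = 0.0169), and 0.87 (adjusted p = 0.000339) without them. Mars, the methionine enzyme that also charges the initiator tRNA, read 11.54, 11.30 and 11.21 in Myc TTP cells and 11.40, 11.29 and 10.65 in Myc cells, against 10.76, 10.75 and 10.82 in TTP cells and 10.43, 10.64 and 11.20 in wild-type cells. Here Myc 3 lay below 4 of the 6 arrays without Myc. The difference of Mars was 0.47 ± 0.16 (SE, adjusted p = 0.0368), and 0.59 (adjusted p = 0.00679) without wild type 3 and TTP 3.

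Qars, the glutamine enzyme, read 12.04, 12.19 and 12.51 in Myc TTP cells and 11.79, 11.84 and 11.80 in Myc cells, against 11.34, 11.57 and 11.78 in TTP cells and 11.26, 11.57 and 11.87 in wild-type cells. Its Myc arrays lay close together and only the array labelled wild type 3 reached them. The difference was 0.46 ± 0.12 (SE, adjusted p = 0.0176), and 0.60 (adjusted p = 0.00113) without the 2 arrays. Its 3 other tested probe sets did not show this rise, with differences of −0.24, −0.0018 and 0.11, so the call for Qars rests on the brightest probe set alone. The remaining complex members, Iars and Lars, did not pass with all arrays. Iars, the isoleucine enzyme, whose promoter holds both motifs, had a difference of 0.55 ± 0.26 (SE, adjusted p = 0.0990). Its arrays read 11.11, 12.12 and 11.87 in Myc TTP cells and 12.26, 12.08 and 11.80 in Myc cells, against 10.84, 11.07 and 12.12 in TTP cells and 10.95, 11.10 and 11.84 in wild-type cells. Myc TTP 1 was the lowest of its Myc-carrying arrays, and TTP 3 and wild type 3 lay within the range of the other 5. Without those 2 arrays Iars rose by 0.88 (adjusted p = 0.00247), with no overlap between the sides. Lars, the leucine enzyme, which is also reported as a leucine sensor of the mTORC1 pathway, had a difference of 0.40 ± 0.20 (SE, adjusted p = 0.118), and rose by 0.59 (adjusted p = 0.0191) without them.

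**Figure D2:**
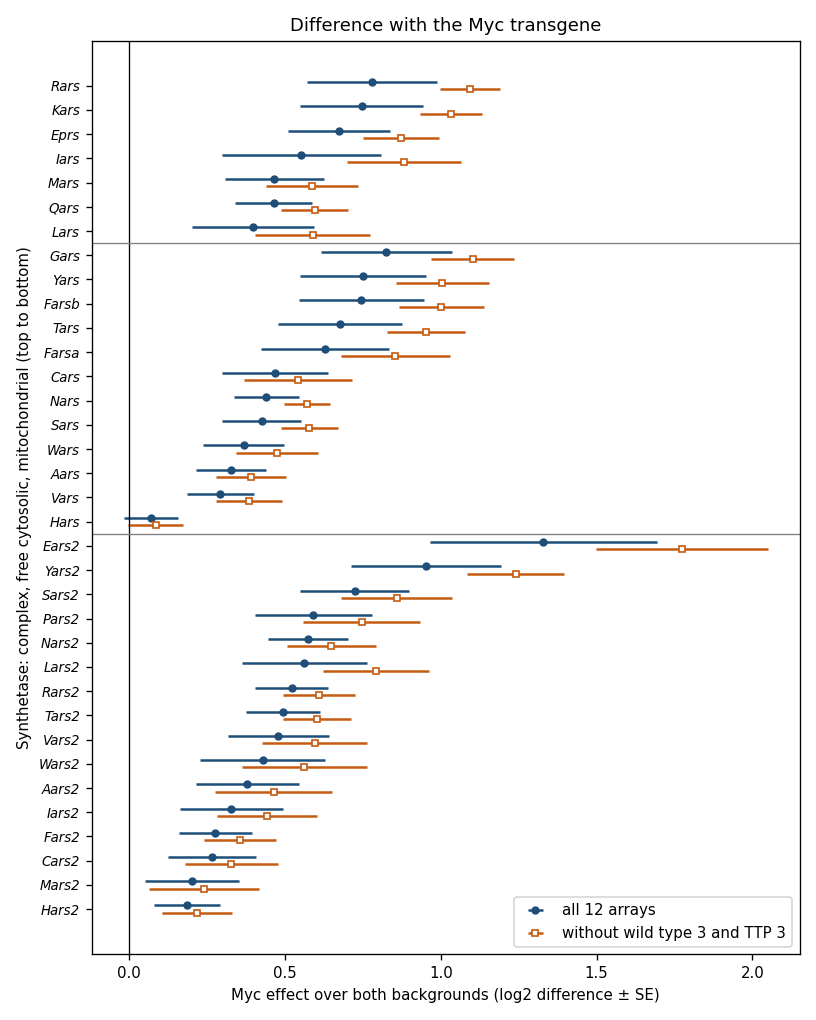
Myc effect of each synthetase (rows, in 3 classes) as a log2 difference with its standard error, for all 12 arrays and for the 10 arrays without wild type 3 and TTP 3. All 35 points lie above 0 in both settings, Ears2 is farthest to the right at 1.33 and 1.77, and Hars is nearest to 0.

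Of the 12 cytosolic enzymes outside the complex, 11 rose with Myc (median 0.45), the exception being Hars. Gars, the glycine enzyme, read 12.30, 12.12 and 12.19 in Myc TTP cells and 12.19, 12.04 and 11.45 in Myc cells, against 11.06, 11.09 and 11.65 in TTP cells and 10.74, 10.89 and 11.91 in wild-type cells. Its difference was 0.83 ± 0.21 (SE, adjusted p = 0.0170), and 1.10 (adjusted p = 0.000206) without wild type 3 and TTP 3, which were the only arrays without Myc to pass Myc 3. Yars, the tyrosine enzyme, read 9.24, 8.98 and 8.90 in Myc TTP cells and 8.52, 8.45 and 8.10 in Myc cells, against 7.83, 7.83 and 8.41 in TTP cells and 7.31, 7.80 and 8.51 in wild-type cells, and its difference was 0.75 ± 0.20 (SE, adjusted p = 0.0182), or 1.01 (adjusted p = 0.000454) without them. In Gars, Yars and Farsb alike the array labelled wild type 3 was the highest of the 6 without Myc. Farsa and Farsb encode the 2 chains of the phenylalanine enzyme. Farsb read 11.39, 11.29 and 11.17 in Myc TTP cells and 11.31, 11.06 and 10.56 in Myc cells, against 10.18, 10.24 and 10.75 in TTP cells and 9.97, 10.11 and 11.05 in wild-type cells, with a difference of 0.74 ± 0.20 (SE, adjusted p = 0.0182). Farsa read 10.07, 10.55 and 10.40 in Myc TTP cells and 10.59, 10.60 and 9.88 in Myc cells, against 9.18, 9.42 and 10.15 in TTP cells and 9.47, 9.91 and 10.20 in wild-type cells, with a difference of 0.63 ± 0.21 (SE, adjusted p = 0.0321). Over the arrays other than wild type 3 and TTP 3, the 2 chains rose by 1.00 and 0.85, and Farsa also had wild type 2 above Myc 3.

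Tars, the threonine enzyme, whose promoter holds both motifs, read 11.23, 10.97 and 11.05 in Myc TTP cells and 10.95, 10.98 and 10.42 in Myc cells, against 10.09, 9.88 and 10.80 in TTP cells and 10.04, 9.91 and 10.82 in wild-type cells. Only wild type 3 and TTP 3 overlapped with its Myc-carrying arrays, through Myc 3. The difference was 0.68 ± 0.20 (SE, adjusted p = 0.0231), and 0.95 (adjusted p = 0.000283) without those 2 arrays. Nars, the asparagine enzyme, read 11.94, 11.94 and 11.91 in Myc TTP cells and 11.66, 11.69 and 11.49 in Myc cells, against 11.12, 11.32 and 11.55 in TTP cells and 11.14, 11.22 and 11.64 in wild-type cells, and rose by 0.44 ± 0.10 (SE, adjusted p = 0.0169). Sars, the serine enzyme, read 11.33, 11.17 and 11.29 in Myc TTP cells and 10.96, 10.92 and 10.60 in Myc cells, against 10.56, 10.50 and 10.84 in TTP cells and 10.48, 10.34 and 11.02 in wild-type cells, and rose by 0.42 ± 0.13 (SE, adjusted p = 0.0243). Both had the same 2 arrays reaching Myc 3, and without them Nars rose by 0.57 and Sars by 0.58. Cars, the cysteine enzyme, read 9.27, 9.17 and 9.20 in Myc TTP cells and 8.95, 8.60 and 8.0 in Myc cells, against 8.41, 8.29 and 8.20 in TTP cells and 8.25, 8.35 and 8.88 in wild-type cells, and rose by 0.47 ± 0.17 (SE, adjusted p = 0.0452). Aars, the alanine enzyme with both motifs in its promoter, read 11.23, 10.96 and 11 in Myc TTP cells and 10.61, 10.65 and 10.20 in Myc cells, against 10.54, 10.41 and 10.48 in TTP cells and 10.21, 10.38 and 10.68 in wild-type cells, and rose by 0.33 ± 0.11 (SE, adjusted p = 0.0386). On Cars and Aars the array Myc 3 lay below all 6 arrays without Myc, and leaving out wild type 3 and TTP 3 moved the differences to 0.54 and 0.39.

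Wars, the tryptophan enzyme, which interferon is known to induce, read 10.14, 9.68 and 9.80 in Myc TTP cells and 9.41, 9.55 and 9.08 in Myc cells, against 8.99, 9.02 and 9.39 in TTP cells and 9.20, 9.35 and 9.53 in wild-type cells, with a difference of 0.37 ± 0.13 (SE, adjusted p = 0.0426). Vars, the valine enzyme, read 11.64, 11.27 and 11.73 in Myc TTP cells and 11.13, 11.30 and 11.04 in Myc cells, against 10.98, 10.89 and 11.18 in TTP cells and 10.91, 11.10 and 11.30 in wild-type cells, with a difference of 0.29 ± 0.11 (SE, adjusted p = 0.0482), the smallest of the called members. In Wars the 3 Myc TTP arrays were the highest of all, in Vars Myc TTP 1 and 3 were, and the Myc arrays lay among the rest. Leaving out wild type 3 and TTP 3, the difference was 0.47 in Wars and 0.38 in Vars. Hars, the histidine enzyme, read 13.03, 13.25 and 12.91 in Myc TTP cells and 13.12, 13.04 and 12.82 in Myc cells, against 13.05, 12.95 and 12.86 in TTP cells and 12.93, 12.85 and 13.13 in wild-type cells. Its 4 groups overlapped throughout, and its difference of 0.07 ± 0.09 (SE, adjusted p = 0.528) did not pass, nor did the 0.08 (adjusted p = 0.427) without the 2 arrays. A second, dimmer probe set of Hars had a difference of 0.28 ± 0.11 (SE).

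Of the 16 mitochondrial enzymes, 9 rose with Myc (median 0.49), and 12 of 16 without wild type 3 and TTP 3 (median 0.60). Ears2, the glutamate enzyme, had the largest difference of all 35 members. In mitochondria it charges both the glutamate and the glutamine tRNA, the second of which is then amidated. It read 7.62, 7.55 and 6.62 in Myc TTP cells and 7.11, 7.29 and 6.27 in Myc cells, against 5.22, 5.67 and 6.37 in TTP cells and 5.0, 5.32 and 6.91 in wild-type cells. TTP 3 and wild type 3 lay above TTP 1 and 2 and wild type 1 and 2 by more than the spread of those 4. TTP 3 lay between Myc 3 and Myc TTP 3, and wild type 3 above both. The difference was 1.33 ± 0.36 (SE, adjusted p = 0.0189), a 2.51-fold rise, and 1.77 (adjusted p = 0.000553), or 3.42-fold, without the 2 arrays. The call for Ears2 was lost when TTP 1 or wild type 2 was left out, and its other tested probe set had a difference of 0.60.

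Yars2, the tyrosine enzyme, read 10.40, 10.37 and 10.12 in Myc TTP cells and 10.50, 10.30 and 9.66 in Myc cells, against 9.18, 9.16 and 9.55 in TTP cells and 8.81, 8.79 and 10.15 in wild-type cells. Only wild type 3 reached into its Myc-carrying arrays. The difference was 0.95 ± 0.24 (SE, adjusted p = 0.0170), a 1.93-fold rise, and 1.24 (adjusted p = 0.000235) without wild type 3 and TTP 3. Sars2, the serine enzyme, read 9.17, 9.09 and 8.73 in Myc TTP cells and 8.87, 8.87 and 8.20 in Myc cells, against 7.99, 7.57 and 7.98 in TTP cells and 8.21, 8.08 and 8.75 in wild-type cells. It had wild type 1 and 3 above Myc 3, and a difference of 0.72 ± 0.18 (SE, adjusted p = 0.0169), or 0.86 (adjusted p = 0.00239) without the 2 arrays. Nars2, the asparagine enzyme, read 8.15, 7.79 and 7.81 in Myc TTP cells and 7.73, 7.82 and 7.66 in Myc cells, against 7.08, 7.47 and 7.40 in TTP cells and 7.03, 7.15 and 7.41 in wild-type cells. Every Myc-carrying array lay above every other array, wild type 3 and TTP 3 included. The difference was 0.57 ± 0.13 (SE, adjusted p = 0.0169), and 0.65 (adjusted p = 0.00338) without those 2. Rars2, the arginine enzyme, read 10.41, 10.03 and 10.05 in Myc TTP cells and 9.70, 9.84 and 9.51 in Myc cells, against 9.41, 9.34 and 9.52 in TTP cells and 9.14, 9.37 and 9.64 in wild-type cells, and rose by 0.52 ± 0.12 (SE, adjusted p = 0.0169). Tars2, the threonine enzyme, read 10.79, 10.46 and 10.54 in Myc TTP cells and 10.31, 10.31 and 9.94 in Myc cells, against 9.81, 9.93 and 10.08 in TTP cells and 9.73, 9.68 and 10.15 in wild-type cells, and rose by 0.49 ± 0.12 (SE, adjusted p = 0.0169). In both only wild type 3 and TTP 3 reached Myc 3, and without them Rars2 rose by 0.61 and Tars2 by 0.60.

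Pars2, the proline enzyme, read 8.15, 7.96 and 7.75 in Myc TTP cells and 7.52, 7.18 and 7.03 in Myc cells, against 6.83, 7.14 and 7.21 in TTP cells and 6.36, 7.07 and 7.41 in wild-type cells, and rose by 0.59 ± 0.19 (SE, adjusted p = 0.0297). Lars2, the leucine enzyme, read 9.54, 10.25 and 10.32 in Myc TTP cells and 10.13, 10.07 and 9.72 in Myc cells, against 9.16, 9.42 and 9.97 in TTP cells and 9.23, 9.03 and 9.83 in wild-type cells, and rose by 0.56 ± 0.20 (SE, adjusted p = 0.0433). Vars2, the valine enzyme, read 8.66, 8.22 and 8.25 in Myc TTP cells and 8.13, 8.22 and 7.55 in Myc cells, against 7.49, 7.63 and 7.76 in TTP cells and 7.55, 7.65 and 8.10 in wild-type cells, and rose by 0.48 ± 0.16 (SE, adjusted p = 0.0359). In Pars2 and Vars2 Myc 3 lay below 4 or more arrays without Myc, and in Lars2 Myc TTP 1 was the lowest Myc-carrying array. Leaving out wild type 3 and TTP 3, the rises were 0.75 in Pars2, 0.79 in Lars2 and 0.60 in Vars2. The 7 mitochondrial enzymes that did not pass with all arrays had differences from 0.19 ± 0.11 in Hars2 to 0.43 ± 0.20 in Wars2. Between these lay 0.20 ± 0.15 in Mars2, 0.27 ± 0.14 in Cars2, 0.28 ± 0.12 in Fars2, 0.33 ± 0.17 in Iars2 and 0.38 ± 0.17 in Aars2. Of the 7, Fars2, Iars2 and Wars2 passed without the 2 arrays, at 0.35 (adjusted p = 0.0235), 0.44 (adjusted p = 0.0366) and 0.56 (adjusted p = 0.0332). Mars2, the methionine enzyme, was read near the floor of the filter, at 4.01 to 4.75 over all arrays. The 2 tested probe sets of Hars2 went opposite ways, at 0.19 and −0.12. The dimmer tested probe set of Wars2 had a larger difference than the one used, at 0.69 ± 0.20 (SE). Those of Cars2, Fars2, Iars2 and Mars2 had 0.26, 0.14, 0.13 and 0.26.

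**Figure D3:**
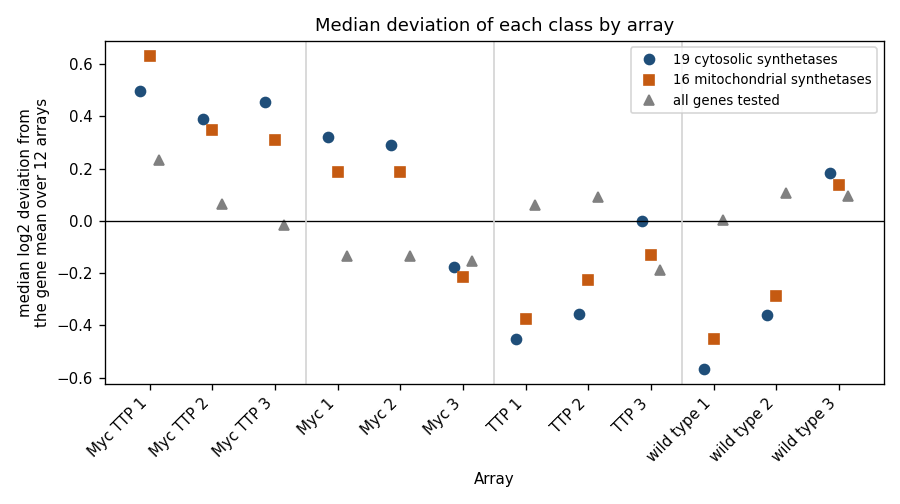
Median deviation (log2, each gene minus its own mean over the 12 arrays) of the cytosolic and the mitochondrial synthetases on each array, beside the median of all genes tested, with Myc TTP and Myc arrays at the left of TTP and wild-type arrays. Both classes follow each other closely, from 0.63 for the mitochondrial enzymes on Myc TTP 1 to −0.57 for the cytosolic enzymes on wild type 1, while all genes stay between −0.19 and 0.23.

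In the Myc effect 16 of 19 cytosolic enzymes were called, with a median of 0.47, and 9 of 16 mitochondrial enzymes, with a median of 0.49. The difference between these shares was not tested. On any array the class medians differed by at most 0.14. Enzymes for the same amino acid form 17 pairs, with Eprs and Fars2 entering 2 pairs each. The cytosolic enzyme had the larger Myc effect in 8 of the 17 pairs, and the median of the cytosolic minus the mitochondrial change was −0.05. The widest gap was for glutamate, where Eprs changed by 0.66 less than Ears2. That gap rests on the brightest probe set of Ears2. The dimmer tested probe set of Ears2 had a difference of 0.60, beside 0.67 in Eprs. In serine the cytosolic enzyme changed by 0.30 less and in tyrosine by 0.20 less. The gap ran the other way for phenylalanine, where Farsb changed by 0.47 more and Farsa by 0.35 more than Fars2, for methionine (0.26 more in Mars than in Mars2) and for arginine (0.26 more in Rars than in Rars2). These gaps are descriptions, since the difference within a pair was not tested. Without wild type 3 and TTP 3 the cytosolic change was again larger in 8 of 17 pairs, and the glutamate gap was −0.90.

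**Figure D4:**
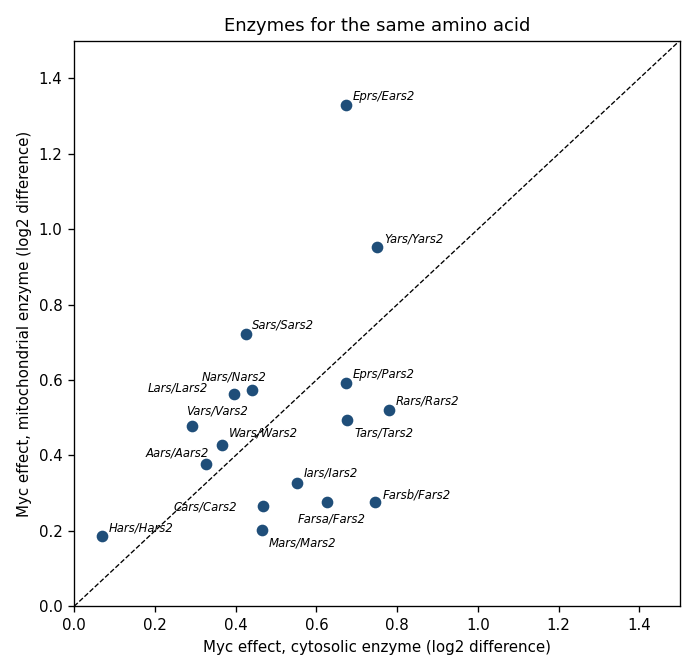
Myc effect (log2 difference, all 12 arrays) of the mitochondrial enzyme (vertical axis) against that of the cytosolic enzyme for the same amino acid (horizontal axis), for 17 pairs, with the line of equal change. Of the 17 points, 8 lie under the line, and Eprs with Ears2 is the farthest above it, with the brightest probe set of each gene.

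The Myc effect was also read on each background alone. In Myc over wild type, 0.467% of all genes tested were called higher, and none of the 35 synthetases was, with 31 differences above 0 and a median of 0.30 against −0.21 for all genes. With quantile normalization the 2 medians were 0.62 and 0.085, and with each array shifted to a common median 0.56 and 0.050. At an unadjusted p under 0.05, 6 of 35 passed, against 41.0% of all genes in either direction. The cytosolic median was 0.49 and the mitochondrial median 0.28. The smallest p-values were those of Nars2 and Eprs, with differences of 0.54 ± 0.18 (SE, adjusted p = 0.0634) and 0.68 ± 0.23 (SE, adjusted p = 0.0656). Nars2 was also the only member whose 3 Myc arrays all lay above the 3 wild-type arrays, which 3.49% of all genes did. Leaving out wild type 3 and TTP 3, 18 of 35 rose (13 of 19 cytosolic, 5 of 16 mitochondrial) with a median of 0.50, against 14.0% of all genes. Leaving out wild type 3 alone, 13 of 35 rose, against 11.5% of all genes. Leaving out all 4 arrays numbered 3, 24 of 35 rose, against 18.4% of all genes.

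In Myc TTP over TTP no gene of the 10287 was called higher (0%), so none of the 35 synthetases was, although 27 of 35 had an unadjusted p under 0.05, against 36.0% of all genes in either direction, and all 35 differences were above 0. The median was 0.67, against 0.09 for all genes, with 0.68 in the cytosolic and 0.63 in the mitochondrial class. Sars2 and Rars2 had the smallest p-values, with differences of 1.15 ± 0.25 (SE, adjusted p = 0.0607) and 0.74 ± 0.16 (SE, adjusted p = 0.0607). In 29 of 35 members all 3 Myc TTP arrays lay above all 3 TTP arrays, against 30.6% of all genes. Without wild type 3 and TTP 3, 28 of 35 rose (17 of 19 cytosolic, 11 of 16 mitochondrial) with a median of 0.79, against 21.0% of all genes. Leaving out TTP 3 alone gave 25 of 35, against 18.5% of all genes, and leaving out wild type 3 alone gave 24 of 35, against 16.7%. Without the 4 arrays numbered 3 it was again 28 of 35, against 23.7% of all genes.

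Whether the TTP transgene went with a change of the synthetases was read in 3 further contrasts, in each of which 0% of all genes tested were called higher. In TTP over wild type none of the 35 passed, and none had an unadjusted p under 0.05, against 1.45% of all genes. The median difference was 0.01, with 22 of 35 above 0, beside −0.06 for all genes. Without wild type 3 and TTP 3 it was 0.12, beside 0.04 for all genes. The smallest p-values were those of Sars2, at -0.50 ± 0.25 (SE, adjusted p = 1.00), and Wars, at -0.23 ± 0.18 (SE, adjusted p = 1.00). Sars2 was the only member with its 3 TTP arrays all below the 3 wild-type arrays, and 3.65% of all genes showed that.

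In Myc TTP over Myc none passed, 12 of 35 had an unadjusted p under 0.05 (19.1% of all genes), and 32 of 35 differences were above 0. The median of 0.32 lay beside a median of 0.27 for all genes, and with each array shifted to a common median it was 0.053 beside 0.0064. The smallest p-values were those of Aars, at 0.57 ± 0.16 (SE, adjusted p = 0.178), and Aars2, at 0.77 ± 0.23 (SE, adjusted p = 0.178), the cytosolic and mitochondrial alanine enzymes. In 18 of 35 members the 3 Myc TTP arrays lay above the 3 Myc arrays, against 32.3% of all genes. The interaction, Myc TTP over Myc minus TTP over wild type, was called for none, and 6 of 35 had an unadjusted p under 0.05, against 13.1% of all genes. Its median was 0.33 beside 0.34 for all genes, 0.27 beside 0.23 without wild type 3 and TTP 3, 0.029 beside 0.032 with quantile normalization, and 0.0029 beside 0.015 at a common median. Wars and Fars2 had the smallest p-values, at 0.76 ± 0.26 (SE, adjusted p = 0.358) and 0.64 ± 0.23 (SE, adjusted p = 0.359), and the sign in Fars2 turned with other probe sets (−0.75 with the most variable one). With wild type 3 and TTP 3 left out, none of the 35 passed in any of these 3 contrasts, while the share of all genes called higher was 0.00972% in TTP over wild type, 0.00972% in Myc TTP over Myc and 0% in the interaction. With the 4 arrays numbered 3 left out, again none of the 35 passed, while that share was 0.00972% in TTP over wild type, 14.1% in Myc TTP over Myc and 2.2% in the interaction. The synthetase median in Myc TTP over Myc was then 0.25, beside 0.31 for all genes. The contrasts of Myc TTP cells share their arrays, so their members' values are given side by side and not as separate support.

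Genes that work with the synthetases were read from 4 lists. For comparison, 18.7% of all genes tested were called higher in the Myc effect and 24.6% lower. Without wild type 3 and TTP 3, 24.1% were called higher. Of the partners and helpers of aminoacylation, 14 in number, 10 were tested and 6 rose with Myc, with none lower and a median of 0.55. Aimp1 and Aimp2, scaffold proteins of the multi-synthetase complex, rose by 0.49 ± 0.12 and 1.17 ± 0.28, and Dtd1, a D-aminoacyl-tRNA deacylase, by 1.04 ± 0.26 (adjusted p = 0.0169 each). Leaving out wild type 3 and TTP 3, the 3 rises were 0.65, 1.60 and 1.39, and the count was again 6 of 10. Of 40 genes of tRNA processing, modification and export, 38 were tested and 29 rose, with none lower and a median of 0.71. Leaving those 2 arrays out, it was 34 of 38. Its smallest p-values were those of Adat3, a subunit of the tRNA adenosine deaminase, at 1.22 ± 0.20, Tsen54, a subunit of the tRNA splicing endonuclease, at 1.13 ± 0.20, and Mettl1, a tRNA guanosine methyltransferase, at 1.49 ± 0.31 (adjusted p = 0.0169 each), and 1.41, 1.37 and 1.97 without the 2 arrays.

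RNA polymerase III transcribes the tRNA genes. A list of 21 genes of this transcription held its subunits and also other factors, such as Brf1, Gtf3c1 and Maf1. Of these, 20 were tested, 10 rose and 1 fell, with a median of 0.31. The polymerase subunits Polr3d, Polr3g and Polr3e rose by 1.04 ± 0.20, 1.24 ± 0.27 and 1.14 ± 0.28 (adjusted p = 0.0169 each), and by 1.24, 1.53 and 1.53 without those 2 arrays. Of 26 genes of the amino acid response, 20 were tested, 8 rose and 2 fell, with a median of 0.22. The amino acid transporters Slc7a5 and Slc7a1 rose by 1.21 ± 0.29 and 0.99 ± 0.25, and Mthfd2, a mitochondrial enzyme of folate metabolism, by 0.87 ± 0.22 (adjusted p = 0.0169 each). Their differences were 1.62, 1.34 and 1.13 without the 2 arrays. With all arrays, 18.7% of all genes tested were called higher and 24.6% lower. Without wild type 3 and TTP 3, 12 genes of the polymerase III list rose and 3 fell, and 10 amino acid response genes rose and 4 fell. In that setting 24.1% of all genes tested were called higher and 37.0% lower. Set beside the synthetase count of 25 of 35, the share of tested genes that rose was highest in the tRNA processing list and lowest in the amino acid response list. The shares were not tested against each other.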

How the data were processed

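RNA of bone marrow B220+ cells was hybridised to 1 array per sample, 12 arrays in 4 groups of 3. The authors deposited GCRMA values per probe set, per the submitters' processing notes, with no version given. The values themselves are intensity on a linear scale. GCRMA corrects background and normalizes between arrays, so a change in the RNA content of all cells cannot be seen. No batch is given in the sources used here, and the number of arrays limits the precision.

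Log2 of the deposited intensity was taken without a pseudocount. Of 45101 probe sets, 34958 had 1 gene symbol, 932 several and 9211 none, and 34754 of the probe sets with 1 symbol were found in RefSeq (GRCm38.p6). The probe set with the highest mean stood for each gene. Genes above log2 4 on at least 3 arrays were tested, 10287 of 18194. limma 3.58.1 in R 4.3.3 fitted 4 group means over all arrays (lmFit, eBayes with an intensity trend, 8 residual degrees of freedom), two-sided, and a gene was called where its p, adjusted by Benjamini-Hochberg over all genes tested, was under 0.05. The steps were tested on simulated data with independent noise for each gene. That noise leaves out deviations that many genes share on an array, so the simulation does not bear on them. Standard errors are those of the fit. The members and lists were chosen with earlier results of these data known. Readings on each array were given for members called in any contrast with all arrays, and for Iars and Hars. Differences were given for the 2 members with the smallest p of each other contrast. The same was done for the 3 genes with the smallest p of each of the 4 companion lists. The alternatives tried were 2 other filters, quantile and common-median scaling, 2 variance models, 2 choices of probe set, a pseudocount of 16, the replicate number as a block, and the leaving out of arrays. The residuals of same-numbered arrays were correlated at 0.50, 0.66 and 0.82 between TTP and wild-type cells. Arrays 1 and 2 also correlated across numbers there (0.51 and 0.43), so this measure does not show that the numbers pair the samples. With the number as a block, 19 synthetases were called in the Myc effect, against 25 without it. In TTP over wild type the count stayed at 0. The correlations of same-numbered arrays were 0.37, −0.058 and 0.50 between Myc TTP and TTP cells, and −0.43, −0.28 and −0.63 between Myc and wild-type cells. Between Myc TTP and Myc cells they were −0.40, −0.029 and −0.31. The numbers were not taken as pairs in the fit reported.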

Additional observations from a re-analysis of the deposited data

How the results depend on the processing

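The number of synthetases called in the Myc effect was 25, and lay between 17 (no filter) and 32 (quantile normalization) under the other settings over all 12 arrays, with 30 at a common median, 24 without the intensity trend, 18 without moderation, 18 with the most variable probe set, 22 with the mean of all probe sets, and 25 with a floor of log2 6 or a pseudocount of 16. With the replicate number as a block it was 19, while 1663 of all genes tested were called higher and 2511 lower. The block gave no call in any other contrast. No synthetase was called lower in any of these settings. Shares of all genes are not given here for the filter, variance, probe-set and pseudocount settings, so those counts stand without them. Leaving out 1 array at a time gave 13 to 29 of 35 in the Myc effect (29 without wild type 3), 0 to 13 in Myc over wild type and 0 to 25 in Myc TTP over TTP. The other 3 contrasts had 0 throughout. In each of the 12 settings that leave out 1 array, 13 members were called: Eprs, Farsb, Gars, Kars, Nars, Qars, Rars, Yars, Nars2, Rars2, Sars2, Tars2 and Yars2. The counts in Myc over wild type were 18 (wild type 3 and TTP 3 left out) and 24 (the 4 arrays numbered 3 left out), and in Myc TTP over TTP 28 in both settings. Quantile normalization moved the median Myc effect of all genes by more than 0.1, to 0.086 against −0.056, and the split of all calls to 3129 higher and 2270 lower, against 1920 higher and 2529 lower. A common median gave 2667 higher and 2467 lower.

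Without the 4 arrays numbered 3 the cytosolic median was 0.74 in the Myc effect and 0.86 in Myc over wild type, and the mitochondrial median 0.59 in Myc over wild type and 0.13 in the interaction. Quantile normalization and a common median moved the mitochondrial median to 0.60 and 0.54 in Myc over wild type, to 0.053 and 0.073 in Myc TTP over Myc, and to 0.033 and 0.027 in the interaction, where a common median put the cytosolic median at −0.028. Leaving out 1 array at a time, the cytosolic and the mitochondrial median ranged over 0.41 to 0.60 and 0.44 to 0.56 in the Myc effect, 0.21 to 0.67 and 0.11 to 0.46 in Myc over wild type, 0.59 to 0.81 and 0.58 to 0.73 in Myc TTP over TTP. The same ranges were −0.13 to 0.24 and −0.16 to 0.20 in TTP over wild type, 0.11 to 0.39 and 0.17 to 0.45 in Myc TTP over Myc, 0.04 to 0.52 and 0.18 to 0.51 in the interaction. The difference turned sign with the most variable probe set in Qars (−0.24) and Hars2 (−0.12) in the Myc effect, and in Fars2 in the interaction (−0.75, and −0.055 with the mean of all probe sets), where the cause was not tested.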
